A study of Homo sapiens with 24 samples.

Results

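The genes described here encode the proteins of the cytosolic ribosome, and their transcripts were followed across 2 prostate cancer sublines in which POM121 had been knocked down with siRNA. Members were chosen by symbol (RPL or RPS with a number, RPLP0, RPLP1, RPLP2 and RPSA) and by measured level, a mean log2 FPKM over 3 across all 24 samples. FPKM counts sequenced fragments scaled for transcript length and library size. Of 25277 symbols in the deposited table, 77 had such a name and 76 passed: 42 of the large subunit, 31 of the small subunit and the 3 proteins of the P stalk. The level filter decided little. RPL36A, outside it, was listed at 0 in all samples, and the lowest members inside it, RPL9 and RPL27A, had means of 5.03 and 5.67 log2 FPKM. Because a level chose the members, that they are abundant is no finding.

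DU145-DR and 22Rv1-DR (DU145DR and 22Rv1DR below) are sublines of the human prostate cancer lines DU145 and 22Rv1, and the labels call them aggressive. Whether either is a single clone is not given in the sources used here. Cells of each line were left as control, or received POM121 siRNA construct 1 or construct 2 (Silencer Select), which makes 6 groups, and the control is named Control with no further detail. The series title speaks of a knockout, but the protocol describes siRNA. The 24 samples are 12 poly(A) libraries read on 2 lanes each, 2 libraries per group. In a library's name the letter gives the arm (A for control, B for construct 1, C for construct 2), and the number is 1 or 2 in DU145DR and 4 or 5 in 22Rv1DR. Whether replicate libraries stem from independent cultures is not stated, so a p-value here reflects no more than library-to-library spread, which may be technical.

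A eukaryotic ribosome joins a small subunit, which binds the mRNA and reads its codons, to a large subunit, which makes the peptide bond and holds the exit tunnel. Each ribosomal protein is needed in about the same amount, and the acidic P stalk recruits the elongation factors. Most ribosomal protein mRNAs start with a C followed by a run of pyrimidines, the terminal oligopyrimidine (TOP) tract, through which mTORC1 and LARP1 tune their translation. Ribosome synthesis is often raised in cancer, and MYC is a known driver of it.

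Start sites of the members that lead the comparisons below are shown first, because the tract is what their mRNAs are known to share. The sequences are RefSeq's, on build GRCh38.p14, from 15 bases before to 15 after the annotated start, written 5′ to 3′. Capitals mark the C nearest to the annotated start that opens at least 5 pyrimidines, and the pyrimidines after it; in several genes the run also extends upstream of that C, in lower case. The first 5 genes were the highest in control 22Rv1DR against DU145DR or lay lowest in 1 construct 2 library, and the other 6 are members that were higher with siRNA in 22Rv1DR, lower in control 22Rv1DR or of the stalk.
RPL31, chr2:101002274-101002303, plus strand: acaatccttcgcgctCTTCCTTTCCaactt
RPS21, chr20:62387088-62387117, plus strand: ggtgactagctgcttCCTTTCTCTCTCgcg
RPL34, chr4:108620561-108620590, plus strand: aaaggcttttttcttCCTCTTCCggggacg
RPS19, chr19:41860240-41860269, plus strand: ggaaaccccgtcgttCCCTTTCCCCTggct
RPS12, chr6:132814554-132814583, plus strand: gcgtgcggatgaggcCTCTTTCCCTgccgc
RPLP2, chr11:809952-809981, plus strand: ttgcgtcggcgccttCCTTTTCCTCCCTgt
RPL9, chr4:39458908-39458937, minus strand: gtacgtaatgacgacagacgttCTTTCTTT
RPS7, chr2:3575245-3575274, plus strand: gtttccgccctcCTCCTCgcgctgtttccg
RPS25, chr11:119018329-119018358, minus strand: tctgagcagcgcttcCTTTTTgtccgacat
RPS3A, chr4:151099613-151099642, plus strand: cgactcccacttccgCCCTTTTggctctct
RPS27, chr1:153990747-153990776, plus strand: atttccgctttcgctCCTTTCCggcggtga

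The table held start sites for 61 of the 76 members, with 76 entries in all. A C that opened at least 5 pyrimidines and lay within 10 bases of the start, on the transcribed strand, was found in 63 of these 76 entries, or 82.9%, against 33.5% of 35116 entries of all genes. The ETS-type motif CCGGAAG, searched on both strands over 250 bases before and 50 after the start, was in 34.2% of member entries and 10.3% of all, and TATAAA in 6.58% and 11.5%. The E-box CACGTG stood in 5.26% of member entries and 7.26% of all. On the other strand CCGGAAG reads CTTCCGG, which opens with 5 pyrimidines, so a tract and this motif can share bases, as in RPL34 above. How many entries share them was not counted. The promoter of RPL31, the member with the largest difference between the lines, holds CCGGAAG at base -53 from the start, in capitals in its last 120 bases and the first 15 of the transcript, chr2:101002169-101002303 on the plus strand of the same build.
RPL31 promoter: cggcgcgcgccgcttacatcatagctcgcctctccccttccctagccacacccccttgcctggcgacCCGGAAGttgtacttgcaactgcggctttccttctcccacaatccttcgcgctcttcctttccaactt

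Read depth is not given in the files, so no counting interval can be stated. Each sample had between 11884 and 12569 symbols above the floor of 1 FPKM. POM121, the targeted nucleoporin, stood at 21.6 and 21.3 FPKM in control DU145DR and at 12.5 to 13.5 with siRNA, and at 38.5 and 37.8 in control 22Rv1DR and 6.73 to 7.81 with siRNA, and every siRNA library lay under both controls of its line. DU145DR had KLK2, KLK3, HOXB13, FOLH1 and TMPRSS2 at 0 and a summed level of 848 to 992 FPKM for 8 basal or mesenchymal markers, while 22Rv1DR had VIM, CD44 and AXL at 0 and 890 to 1190 FPKM for 10 luminal markers. Of 13 stromal, vessel and blood markers 9, among them PTPRC, PECAM1 and HBB, were at 0 in both lines; COL1A1, CD68 and ACTA2 were above the floor in DU145DR (16.0 to 17.8 FPKM summed over the list), and with LUM in 22Rv1DR (56.1 to 69.3). Of these 4, 2 were higher and 1 lower with construct 1 in DU145DR and 1 higher with construct 2, and in 22Rv1DR 1 and 2 were higher, and their part in the results was not tested. Library 5C stood apart from its replicate 4C for the ribosomal genes: 4C minus 5C had a median of 0.47 log2 and an SD of 0.57 over the 76 members, against -0.09 and 0.24 over 5393 other well expressed symbols. Results on construct 2 in 22Rv1DR are therefore given with and without these libraries.

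Every member was measured in every library, but their levels were far from equal. In control DU145DR the lowest was RPL9 at 26.7 FPKM, the median member was at 357 and the highest, RPL30, at 1780. In control 22Rv1DR the lowest was again RPL9, at 34.4, the median 671 and the highest RPL37A, at 2796. Over all 12 libraries the bottom of the order was RPL9 (32.7 FPKM), RPL27A (51.0), RPL22 (77.3) and RPL21 (77.6), and the top was RPL8 (1834), RPL37A (1485), RPL30 (1447) and RPL38 (1361). FPKM is scaled for length, so these levels can be set side by side, but members with many processed pseudogenes in GENCODE v29 tended to read lower: over the 76 genes Spearman's rho between the number of pseudogenes and the mean level was -0.45 (Pearson's r -0.31), and these values share libraries and aligner. What reads lost to pseudogenes did to the levels was not tested.

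A few members were not measured well. RPS18, a small subunit protein, has 6 lines in the table, and its value swung between lanes of 1 library: 1453 and 114 FPKM in 5C, 106 and 315 in 1C. RPL21, of the large subunit, differed by 2.23 log2 between the lanes of 1B. Over all members the median lane difference was 0.0117 to 0.0497 log2 in the 12 libraries. RPS18 and RPL21 stay in all counts, and nothing below rests on either of them alone.

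**Figure D1:**
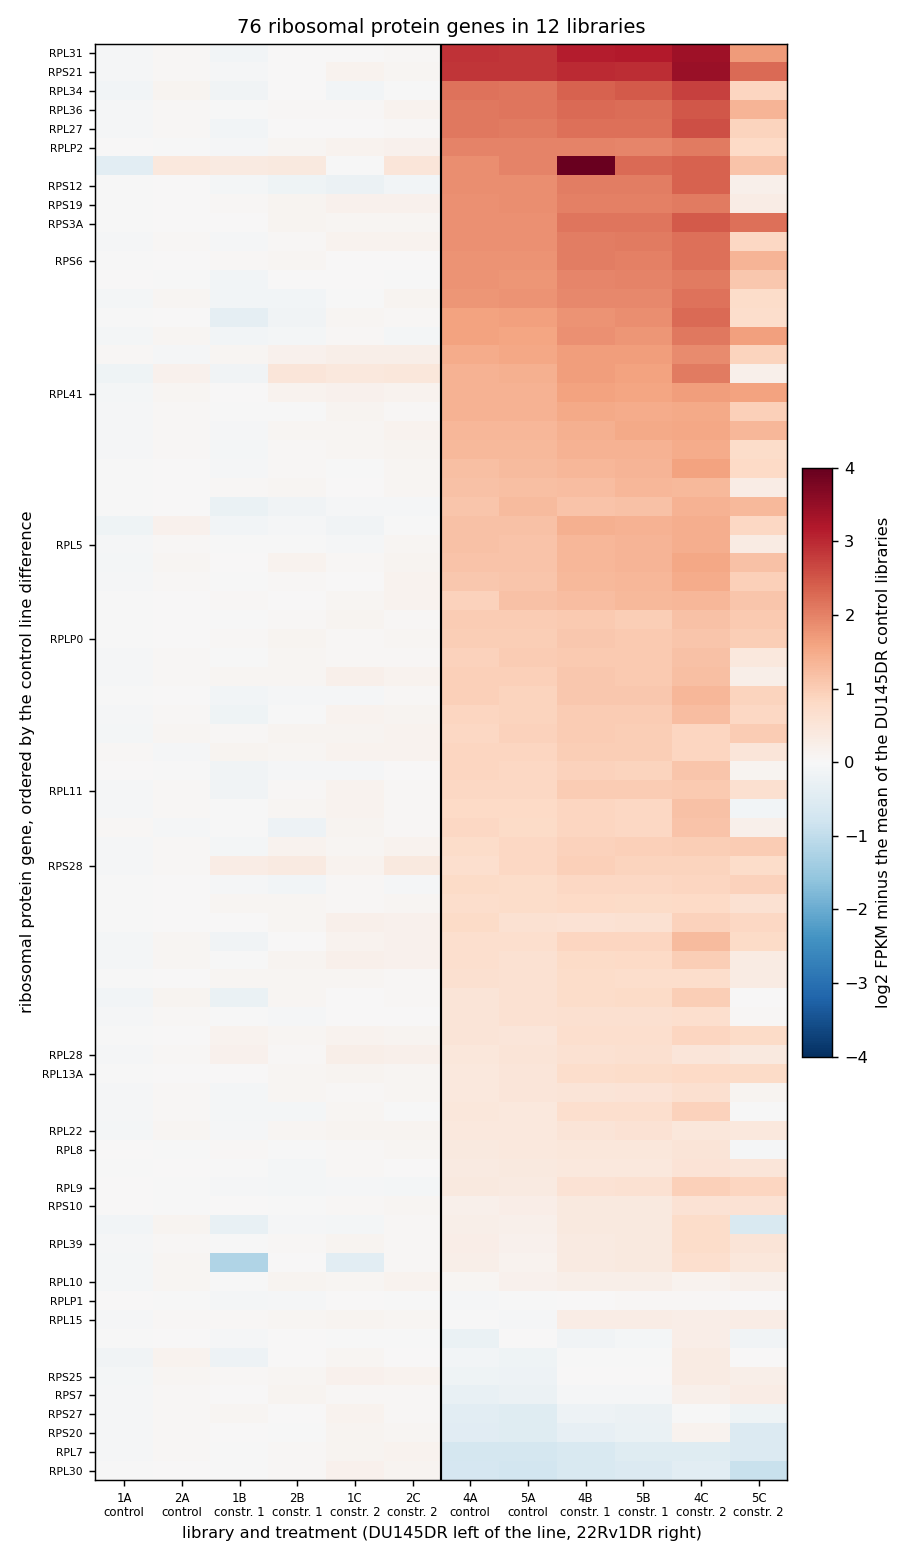
Heat map of log2 FPKM for the 76 genes (vertical, ordered by the difference between control lines, with some rows labelled) in the 12 libraries (horizontal), each as the difference from the mean of the 2 DU145DR control libraries. Most rows are higher in all 22Rv1DR libraries, from 2.88 for RPL31 to -0.71 for RPL30 in the controls, and 5C is paler than the other 22Rv1DR libraries in the upper rows.

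The widest contrast in the ribosomal genes was between the lines themselves. Of the 76 members, 60 were higher in control 22Rv1DR than in control DU145DR and 6 were lower, and 10 did not pass. Over all 13622 symbols tested, 40.3% were higher and 42.7% lower. Both 22Rv1DR controls lay above both DU145DR controls for 66 members (45.1% of all symbols) and below both for 6 (47.5%). The median member difference was 0.85 log2, against -0.02 over all symbols tested. By subunit, 33 of 42 large subunit genes were higher and 2 lower, and 25 of 31 small subunit genes were higher and 4 lower. Members took 8.43% and 8.88% of the summed FPKM of control DU145DR libraries and 14.94% and 14.75% of control 22Rv1DR libraries. In bulk RNA, a change in the make-up of the cells and a change of RNA per cell cannot be told apart, and a share of FPKM is no amount per cell.

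RPL31, a large subunit protein at the rim of the exit tunnel, had the largest difference. It read 166 and 179 FPKM in control DU145DR libraries and 1274 and 1251 in control 22Rv1DR, a log2 difference of 2.88 ± 0.46 (SE, n = 2 libraries per group; limma, adjusted p = 0.000722). RPS21, a small subunit protein needed to mature its rRNA, read 320 and 346 against 2436 and 2427 FPKM, a difference of 2.87 ± 0.30 (limma, adjusted p = 3.19e-05). The groups lay far apart for both genes. RPL34, RPL36 and RPL27, further large subunit proteins, differed by 2.16, 2.13 and 2.09 log2, and RPS3A, a small subunit protein near the mRNA exit, by 1.83 (146 and 150 against 526 and 530 FPKM).

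Within the P stalk the 3 genes differed from each other. RPLP2 read 519 and 515 FPKM in control DU145DR and 2033 and 2050 in control 22Rv1DR, a difference of 1.98 ± 0.33 (limma, adjusted p = 0.000648). RPLP0, the stalk base, read 443 and 456 against 889 and 898 FPKM, a difference of 0.99 ± 0.05. RPLP1, the acidic partner that pairs with RPLP2, read 1179 and 1162 against 1128 and 1168 FPKM and did not pass (-0.03 ± 0.04, limma, adjusted p = 0.56). In DU145DR RPLP1 thus stood above RPLP2, and in control 22Rv1DR below it.

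Among members with known roles outside the ribosome, RPL5 and RPL11 join the 5S rRNA in a particle that can bind MDM2 and so stabilise p53. RPL5 read 243 and 256 FPKM in control DU145DR and 559.6 and 547 in control 22Rv1DR, a difference of 1.15 ± 0.29 (limma, adjusted p = 0.00566). RPL11 read 743 and 787 against 1358 and 1358 FPKM, a difference of 0.83 ± 0.11 (limma, adjusted p = 6.9e-05). RPS6, the substrate of S6 kinase, read 409 and 421 against 1456 and 1430 FPKM, a difference of 1.80 ± 0.20. For each of these the lines did not overlap.

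The 10 members that did not pass were RPL10, RPL15, RPL17, RPL21, RPL35, RPL35A, RPL37, RPLP1, RPS16 and RPS27A. RPL10, which joins the large subunit late in its assembly, read 98.2 and 108 FPKM in control DU145DR and 109 and 117 in control 22Rv1DR (0.13 ± 0.06, limma, adjusted p = 0.0875). RPS16, a small subunit protein, differed by 0.80 but with an SE of 0.33 (limma, adjusted p = 0.0526). It is 1 of the members on which 4C and 5C, described below, disagreed, and their spread enters the error of every comparison. Without those libraries 64 members were higher and 6 lower (42.3% and 44.5% of all symbols).

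Against the rest of the family, 6 members were lower in control 22Rv1DR. They were RPL30, RPL7, RPS20, RPS27, RPS7 and RPS25. RPL30, a large subunit protein, read 1761 and 1800 FPKM in control DU145DR and 1106 and 1076 in control 22Rv1DR (-0.71 ± 0.12, limma, adjusted p = 0.000378). RPL7, also of the large subunit, read 436 and 469 against 278 and 279 FPKM (-0.70 ± 0.05, limma, adjusted p = 1.04e-06). RPS20, at the head of the small subunit, was lower by 0.48 log2 and RPS27, a zinc-binding small subunit protein, by 0.45. For all 6 both 22Rv1DR values lay under both DU145DR values.

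RPL30, RPL7 and RPS20 lie on chromosome 8 in RefSeq, as does RPL8, which was higher by 0.42. The 4 members there had a median line difference of -0.59, and the 422 other tested symbols of that chromosome had -0.52. On the other chromosomes with members, the median of other symbols ran from -0.78 (chromosome 18) to 0.63 (chromosome 12). The members there had -0.12 (1 gene) and 1.09 (4 genes). On chromosomes 2 and 9, with 4 members each, other symbols had -0.41 and -0.40, but members had 0.85 and 0.80. On chromosome 10 other symbols had -0.67 and the 1 member 0.63. DNA copy number was not analysed here, and its part in these values was not tested.

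**Figure D2:**
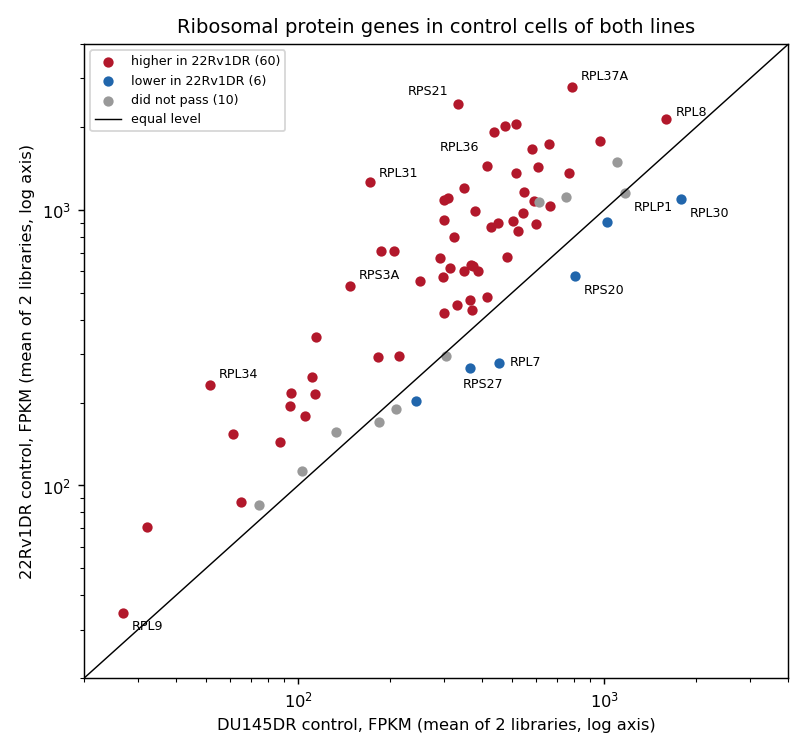
Level of each of the 76 genes in control DU145DR (horizontal) and control 22Rv1DR (vertical), in FPKM on log axes, each point the mean of 2 libraries, coloured by the limma call. The 60 genes that were higher in 22Rv1DR lie above the line of equal level and the 6 lower genes, among them RPL30 and RPL7, below it.

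Lanes 1 and 2 held every DU145DR library and, of 22Rv1DR, the control 4A, while lanes 3 and 4 held the rest. With 4A as the only 22Rv1DR control, and so on 1 pair of lanes, the median member difference was 0.84 log2. The differences of 66 members were then above 0 and those of 10 below. Quantile normalization left 40 higher and 12 lower, where 5554 of 13622 symbols were higher and 5845 lower. The median member difference was then 0.40, so the size of the line difference of the family depended on scaling. RPL39 and RPS10, higher by 0.22 and 0.23 as deposited, were lower by 0.35 and 0.31 on that scale.

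In DU145DR few ribosomal genes passed the test after knockdown. With construct 1, 1 member was higher and 1 lower, where 12.2% of all symbols tested were higher and 7.62% lower, and the median member moved by 0.01 log2. RPS28, a small subunit protein at the mRNA exit, read 102 and 109.7 FPKM in controls and 130.5 and 136 with construct 1 (0.33 ± 0.09, limma, adjusted p = 0.0353). RPS26, its neighbour at the exit channel, read 94.5 and 95.6 against 78.2 and 85.2 FPKM (-0.22 ± 0.06, limma, adjusted p = 0.0362). In both genes the libraries of the 2 groups did not overlap. Both construct 1 libraries lay above both controls for 16 of 76 members (33.4% of all symbols) and below both for 12 (28.7%). Neither gene passed on leaving out either DU145DR control, 1B, 4B or 5B. RPS28 did not pass without 2B, nor RPS26 without 1C or 2C.

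With construct 2 in DU145DR, 1 member passed: RPL28, a large subunit protein, was higher (11.0% of all symbols were higher and 5.62% lower), at 468 and 498 FPKM in controls and 562 and 558 with siRNA. The median member moved by 0.08 log2. Both construct 2 libraries lay above both controls for 46 of 76 members, against 33.9% of all symbols, and below both for 4 (27.0%). Between the constructs no member passed in limma, 2 members had an unadjusted p under 0.05, and 0.00734% of all symbols were higher and 0.0147% lower. The shared spread of the fit includes the disagreement of 4C and 5C. Without these libraries 5 members passed with construct 1 (3 higher, 2 lower; background 18.9% and 15.1%) and 16 with construct 2 (15 higher, 1 lower; 18.1% and 12.4%), with RPS28 at 0.27 the highest with construct 2. Neither RPL28 nor any other member passed with construct 2 on leaving out either DU145DR control, 2C, 4A, 5A, 4B or 5B. Fewer of all symbols passed in each of these fits too.

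**Figure D3:**
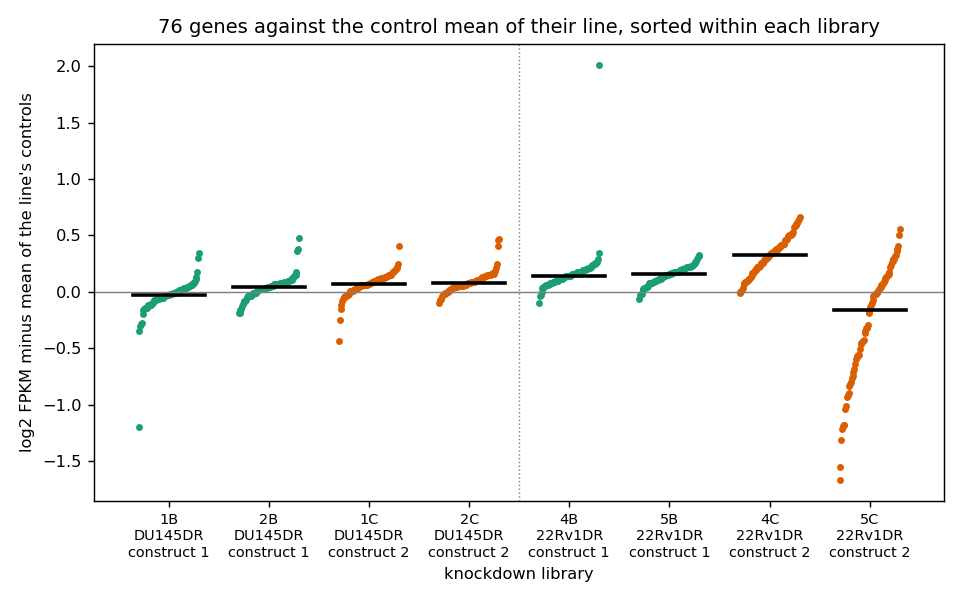
Log2 FPKM of each of the 76 genes minus the mean of the control libraries of its line (vertical), for the 8 knockdown libraries (horizontal), with genes sorted within a library and bars at the median. Medians are -0.03 to 0.07 in DU145DR and 0.14, 0.16 and 0.33 in 4B, 5B and 4C, but -0.16 in 5C, where the genes spread from -1.66 to 0.56.

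In 22Rv1DR, construct 1 was followed by slightly higher levels in most of the family. Both construct 1 libraries lay above both controls for 70 of the 76 members, against 33.0% of all symbols tested, and for no member below both. Changes were small, with a median of 0.15 log2, and 10 members passed, all higher, where 12% of all symbols were higher and 15.2% lower. Among the 6 members not above both controls were RPL17, RPL23A, RPLP2, RPS15 and RPS26. The share of summed FPKM was 16.82% and 16.34%, against 14.94% and 14.75% in the controls.

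RPL15, a large subunit protein needed for 60S assembly, read 297 and 294 FPKM in controls and 375 and 369 with construct 1, a change of 0.33 ± 0.04 log2 (limma, adjusted p = 0.000627). RPS3A read 526 and 530 against 646 and 654 FPKM (0.30 ± 0.07, limma, adjusted p = 0.0153). RPL13A, a large subunit protein also known from the GAIT complex that silences inflammatory mRNAs, read 287 and 302 against 352 and 354 FPKM (0.26 ± 0.05, limma, adjusted p = 0.00321). In each the groups did not overlap. RPS27 and RPL9 were higher by 0.23, RPS25, RPS7 and RPL41 by 0.20 and RPS10 by 0.16. RPS25 is a small subunit protein that many viral internal ribosome entry sites need, RPL41 is the smallest ribosomal protein, and RPS10 sits where the mRNA enters and is ubiquitinated when ribosomes collide.

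How many members passed turned on single libraries. Fewer members passed when 4A, 5A, 4B or 5B was left out, and fewer of all symbols did as well. The median member change was then 0.13, 0.15, 0.16 and 0.14 log2. Leaving out 4A puts all libraries of the comparison on 1 pair of lanes. Without 4C and 5C, which take part only through the shared spread, 38 members were higher (19.4% of all symbols, with 23.7% lower), among them RPL31 at 0.28 and RPS6 at 0.24. Quantile normalization took the median to 0.06, with 7 members higher and 0 lower, where 2160 of 13622 symbols were higher and 2077 lower.

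Construct 2 in 22Rv1DR gave 2 libraries that disagreed. Library 4C lay above both controls for 73 of 76 members, where 31.6% of all symbols did, with a median of 0.33 log2. Library 5C lay below both controls for 44 members and above both for 26, where 40.0% of all symbols lay on each side, with a median of -0.16. For 43 members 4C was above both controls and 5C below both, a pattern of 3.75% of all symbols. The members' share of summed FPKM was 18.27% in 4C and 12.08% in 5C.

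Some members were far lower in 5C than in any other 22Rv1DR library. RPS12, a small subunit protein, read 1083 and 1090 FPKM in controls, 1524 in 4C and 343 in 5C. RPS19, the small subunit protein mutated most often in Diamond-Blackfan anaemia, read 1091 and 1125 in controls, 1310 in 4C and 378 in 5C. RPL31 read 1804 in 4C and 558 in 5C, and RPL34 read 346 and 93.2. The lanes of 5C were close for RPS19, at 389 and 368 FPKM, and for RPL31, at 532 and 584. They differed by over 0.5 log2 in 4 members: RPS12 read 274 and 429 FPKM, RPS29 733 and 483, RPS10 665 and 466, and RPS18 as given above. Both lanes of RPS12 and RPS29 lay under both controls (1335 and 1382 FPKM for RPS29). In 18 members 5C was at least 2-fold under 4C, as it was in 69 of all 13622 symbols, or 0.507%. Among these were RPL5, RPL27, RPL31, RPL34, RPL36, RPL37, RPL37A, RPLP2, RPS4X, RPS12, RPS13, RPS15A, RPS16, RPS19, RPS21 and RPS29. The 18 include RPS18 by the mean of its lanes, although 1 of them lay above 4C.

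Other members had similar values in both libraries. RPS7 read 198 and 208 FPKM in controls, 279 in 4C and 298 in 5C. RPL15 read 297 and 294 in controls and 368 and 370 with construct 2, and RPL13A 368 in both construct 2 libraries. RPLP1 read 1115 to 1216 FPKM across all 12 libraries. RPLP2, the stalk protein that had differed most between the lines, read 904 FPKM in 5C against 2183 in 4C, with RPLP0 at 898 and 964.

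Over the 76 members the difference 5C minus 4C went with the line difference of the controls, a comparison that uses other libraries: Pearson's r was -0.64 and Spearman's rho -0.61 (n = 76 genes measured in the same libraries). Over 5393 other well expressed symbols r was -0.11. Members that were higher in control 22Rv1DR than in DU145DR tended to be those with the lower values in 5C. Library 5C had VIM, CD44 and AXL at 0, as every 22Rv1DR library had, and POM121 at 7.43 FPKM. What set 5C apart was not tested.

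**Figure D4:**
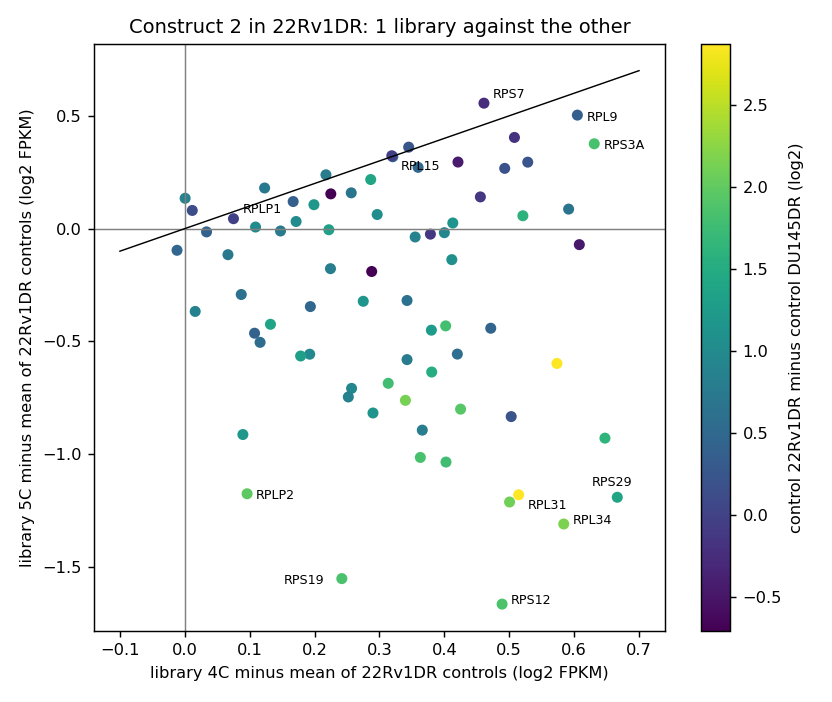
Each of the 76 genes in library 4C (horizontal) and library 5C (vertical), both as log2 FPKM minus the mean of the 22Rv1DR controls, coloured by the control line difference; the black line marks equal change. Points stretch downwards from the line to RPS12 at -1.66 and RPS19, while RPS7 lies above the line of equal change and RPL15 on it.

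With both libraries in the fit, 16 members were higher with construct 2 than in control 22Rv1DR, where 14.5% of all symbols were higher and 20.6% lower, and the median member moved by 0.01. Since the fit takes its error from the spread of the libraries, members on which 4C and 5C disagree could hardly pass, so the 16 are also those on which the libraries agreed. Without 5C, 59 members were higher and none lower (17.3% and 35.3% of all symbols); without 4C, 13 were higher and 36 lower (16.7% and 17.1%). In each case the lone library is assumed to vary like the other groups. The direction of most members with construct 2 thus depended on which library was used.

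Both construct 2 libraries lay above both controls for 24 of 76 members, against 25.0% of all symbols, and below both for 0 (34.5%). The 16 members that passed were among these 24, which a test that favours agreeing libraries makes likely. RPL9, a large subunit protein beside the sarcin-ricin loop, read 34.8 and 34.0 FPKM in controls, 39.8 and 40.6 with construct 1 and 52.3 and 48.7 with construct 2 (0.55 ± 0.05 for construct 2, limma, adjusted p = 0.000144). RPS7, a small subunit protein also known to bind MDM2, rose by 0.51 ± 0.06 (limma, adjusted p = 0.000434), and RPS3A by 0.50 ± 0.07 with 818 and 685 FPKM. RPS25 read 912 and 895 FPKM in controls and 1285 and 1195 with construct 2 (0.46 ± 0.06). RPL39, which lines the exit tunnel, rose by 0.41, RPS27 by 0.36, RPS10 by 0.35, and RPL13A and RPL15 by 0.32. RPL41, RPL29, RPL23A, RPL7, RPL6 and RPSA, the laminin receptor precursor, rose by 0.25, 0.23, 0.21, 0.19, 0.15 and 0.14. Of the 16, RPL29 did not pass without 4C or without 5C (limma, adjusted p = 0.0715 and 0.0694), RPL23A and RPL7 did not pass without 4C (0.0752 and 0.0603), and RPL6 did not pass without 5C (0.0659). The comparisons of the 2 constructs share their controls and are not independent. Without 4A, on 1 pair of lanes, or without 5A, fewer members passed, and fewer of all symbols did. The median member change was 0.01 in both cases.

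Construct 2 was set against construct 1 in 22Rv1DR as well. There 5 members were higher with construct 2, where 7.3% of all symbols were higher and 4.28% lower: RPL9 by 0.33, RPS7 by 0.31, RPL23A by 0.29, RPS25 by 0.26 and RPS10 by 0.19. RPL23A, where the signal recognition particle docks at the exit tunnel, read 273 and 279 FPKM with construct 1 and 349 and 326 with construct 2. The lanes of 5C gave 665 and 466 FPKM for RPS10, and the lower lay under both construct 1 libraries (483 and 488). With library 4C left out 4 members were higher, without RPS25 (limma, adjusted p = 0.082), and 42 lower (6.41% and 4.65%), and with 5C left out 41 were higher and 1 lower (14.6% and 29.3%). Leaving out 4B or 5B lowered the calls among members and over all symbols. The median member difference was then -0.12 and -0.13 log2.

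The effect of each construct was then compared between the lines as an interaction. For construct 1, RPL9 and RPL15 changed more in 22Rv1DR than in DU145DR, by 0.30 and 0.27 log2, where 6.5% of all symbols did so and 11.9% changed the other way. In DU145DR RPL15 read 295 and 312 FPKM in controls and 314 and 322 with construct 1. For construct 2, 7 members changed more in 22Rv1DR (7.9% of all symbols) and 1 less (13.2%). They were RPL9 by 0.61, RPS7 by 0.46, RPS3A by 0.42, RPS25 by 0.30, RPS10 by 0.29, RPL13A and RPL15 by 0.22, and RPL28 by -0.27. RPS25 did not pass without 4C (limma, adjusted p = 0.0579). Without 4C and 5C, 21 members had a larger construct 1 effect in 22Rv1DR (13.6% of all symbols higher, 20.7% lower). For construct 1 fewer members passed without either DU145DR control, 1B, 5A, 4B or 5B. For construct 2 fewer passed without a DU145DR control, 1C, 2C, 4A, 5A, 4B or 5B. Fewer of all symbols passed in each of these fits too. The median member interaction of construct 2 was -0.27 log2 without 4C and 0.23 without 5C.

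Some ribosomal proteins have paralogs, and the products of some, but not all, of these can stand in for them. Of 11 listed 6 were tested, and between control lines 2 were higher in 22Rv1DR and 3 lower (40.3% and 42.7% of all symbols). RPL22L1, the paralog of RPL22, read 13.0 and 13.1 FPKM in control DU145DR and 64.8 and 63.3 in control 22Rv1DR (2.29 ± 0.17), while RPL22 itself differed by 0.42. RPS27L, a p53-responsive paralog, was higher by 1.37 where RPS27 was lower by 0.45. RPL39L, RPL7L1 and RPL36AL were lower by 0.74, 0.40 and 0.37. With siRNA, RPL7L1 was lower in both lines and with both constructs, by 0.29, 0.20, 0.24 and 0.24.

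Of 4 fusion or ribosome-bound genes listed 3 were tested. FAU, which encodes RPS30 fused to a ubiquitin-like protein, and GNB2L1, which encodes the ribosome-bound scaffold RACK1, were higher in control 22Rv1DR by 1.46 and 0.38. FAU read 271 and 261 FPKM in control DU145DR, 719 and 747 in control 22Rv1DR, 824 in 4C and 446 in 5C. None of the 3 passed in a knockdown comparison.

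Translation factors were measured beside the ribosomal genes. Of 11 elongation genes, 6 were higher and 3 lower in control 22Rv1DR (40.3% and 42.7% of all symbols). EEF1A1, the most abundant of them and itself a TOP mRNA, read 1162 and 1114 FPKM in control 22Rv1DR, 1460 and 1455 with construct 1 and 1420 and 1466 with construct 2, and rose by 0.36 and 0.34. Of 32 tested initiation genes, 4 were higher and 7 lower with construct 1 in 22Rv1DR (12% and 15.2% of all symbols), and 4 higher and 14 lower with construct 2 (14.5% and 20.6%). In DU145DR 0 were higher and 7 lower with construct 1 (12.2% and 7.62%), and 0 higher and 3 lower with construct 2 (11.0% and 5.62%). EIF4G3, a scaffold of the cap-binding complex, was lower by 0.56 and 0.34.

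Other mRNAs known to carry TOP tracts also differed between the control lines. Of 20 tested, 14 were higher in 22Rv1DR and 5 lower (40.3% and 42.7% of all symbols), with a median of 0.45 log2. They showed a gap between 4C and 5C as well. Among 20 tested, 10 had 4C above both controls and 5C below both, against 3.75% of all symbols, and the median of 5C minus 4C was -0.32. NACA, a chaperone of nascent chains, read 592 and 565 FPKM in control 22Rv1DR, 681 in 4C and 351 in 5C. Of the 32 initiation genes 5 did so, among them EIF3E, a subunit of eIF3, at 146 and 142 FPKM in controls, 183 in 4C and 91.7 in 5C. Of the 11 elongation genes 0 did. Among 77 mitochondrial ribosomal protein genes 5 showed the pattern, with a median of 0.01. Among 42 genes that build or transport ribosomes 2 did, with a median of 0.11.

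Genes that act upstream of ribosomal protein synthesis (mTORC1 signalling, TOP binding proteins, MYC and RNA polymerase I factors, 36 tested) were 7 higher and 22 lower in control 22Rv1DR, where 40.3% and 42.7% of all symbols were. In that line 3 were higher and 4 lower with construct 1 (12% and 15.2% of all symbols), and 5 higher and 10 lower with construct 2 (14.5% and 20.6%). In DU145DR 2 were higher and 9 lower with construct 1 (12.2% and 7.62%). With construct 2 there, 2 were higher and 7 lower (11.0% and 5.62%).

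Many genes that build or transport ribosomes were lower after knockdown. In DU145DR 27 of 42 were lower with construct 1 and 23 with construct 2 (7.62% and 5.62% of all symbols), and none was higher. In 22Rv1DR 23 and 25 were lower (15.2% and 20.6%) and 2 and 1 higher (12% and 14.5%). NCL, the nucleolar protein nucleolin, read 393 and 401 FPKM in control DU145DR and 305 and 309 with construct 1, and 299 and 289 against 229 and 231 in 22Rv1DR. DKC1, the pseudouridine synthase of box H/ACA particles, was lower by 0.57 and 0.45 in DU145DR and by 0.58 and 0.38 in 22Rv1DR. The medians of the list were -0.29, -0.25, -0.22 and -0.29, and those of the ribosomal genes were 0.01, 0.08, 0.15 and 0.01; the difference between the lists was not tested. Mitochondrial ribosomal protein genes had medians of -0.15, -0.07, -0.09 and -0.04, with 24 of 77 lower with construct 1 in DU145DR (7.62% of all symbols). Between control lines 46 of these 77 were higher in 22Rv1DR and 17 lower (40.3% and 42.7%).

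Ribosomal protein mRNAs are short, so their values were set beside transcript length (the principal transcript in GENCODE v29, found for all 76 members). In the 34 members of 500 to 750 bases the median line difference was 0.88 and 5C minus 4C was -0.64; in the 12 of 1000 to 1500 bases they were 0.79 and -0.13. Other well expressed genes of the same lengths had line differences of 0.35 (163 genes) and 0.05 (624 genes), and 5C minus 4C of -0.07 and 0.06. Short genes outside the family thus also read higher in 22Rv1DR, by less than the members. In the 10 members of up to 500 bases 5C minus 4C was -0.95, and in the 5 over 2500 bases it was -0.39. Over the 76 members length had a Spearman's rho of 0.30 and a Pearson's r of 0.00 with 5C minus 4C. With 4C minus the control mean these were -0.48 and -0.09. A few members had long principal transcripts, such as RPL37 (7686 bases) and RPL27A (4916), which weigh on Pearson's r. The part of length in these results was not tested.

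Members with the largest drop in 5C and members higher with construct 2 both carried tracts at their starts. A tract was found for 11 of the 14 members with a start entry among the 18 with the drop, and for 12 of 13 among the 16 higher members. CCGGAAG stood in 6 of the 14 and 5 of the 13. Among all other members with an entry, 33 of 34 had a tract and 11 had CCGGAAG.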

How the data were processed

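Poly(A) RNA from 2 lines was sequenced with a kit that does not keep strand (TruSeq v2, per the labels' protocols). Per the submitters' processing notes, TopHat and Cufflinks were used with builds hg19 and mm10, and no version is given in the sources used here. The authors deposited 1 table of log2 FPKM with 27026 lines for 25277 symbols, in which 52.8% of values are 0 because FPKM at or under 1 were set to 0. Where a symbol had several lines, that of highest mean was used, and the 2 lanes of a library were averaged on the log2 scale. Symbols with both lanes above the floor in at least 2 of 12 libraries (13622) were tested with limma 3.58.1 in R 4.3.3: 6 group means, 1 shared spread, trend and robust options, 2-sided, Benjamini-Hochberg over all symbols tested, threshold 0.05. A called member is one past that threshold. Depth is unknown and limits precision by an amount that cannot be stated.

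Named genes are the 4 highest and lowest members by level, the 3 highest and lowest by fold change in each of 9 comparisons, members that crossed direction, up to 3 genes per list by p, and measured paralogs and fusion genes. A few genes are not reported here. Members called, set apart in 5C or without the 4C and 5C libraries were named after their values were seen. So were NACA and EIF3E, which are outside the rule and are examples of the gap between 4C and 5C. The members and lists were chosen with earlier results of these data known. Alternatives were leaving out each library, a library block, quantile normalization, rescaling to equal sums of other genes, pseudocounts of 0.1 and 0.5 FPKM, no filter, 1 lane, summed lines, each line alone and a fit without trend and robust options. Leaving out 4C and 5C together was chosen after seeing the data. Sequences came from RefSeq promoter entries on GRCh38.p14, not the authors' build, and were used for no measurement.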

Additional observations from a re-analysis of the deposited data

Results flagged for a closer look

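For 10 results the effect of a construct differed between the lines by the interaction test in limma (adjusted p under the threshold, n = 2 libraries per group). For construct 1 the effect in 22Rv1DR minus that in DU145DR was 0.27 log2 for RPL15 and 0.30 for RPL9. For construct 2 it was 0.61 for RPL9, 0.46 for RPS7, 0.42 for RPS3A, 0.30 for RPS25, 0.29 for RPS10, 0.22 for RPL13A, 0.22 for RPL15 and -0.27 for RPL28. RPL28 read 468 and 498 FPKM in control DU145DR and 562 and 558 with construct 2, against 661 and 686 in control 22Rv1DR and 668 and 630 with construct 2. POM121 itself was lowered further in 22Rv1DR than in DU145DR, to 7.07 from 38.2 FPKM and to 12.8 from 21.4 with construct 2, and the part of that in these differences was not tested. Groups of 2 libraries are too small for a check of single outlying libraries.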

How the results depend on the processing

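Leaving out a library in turn gave 59 to 70 members called between control lines, 0 to 5 with construct 1 and 0 to 16 with construct 2 in DU145DR, 2 to 38 and 10 to 59 in 22Rv1DR, 0 to 46 between constructs in 22Rv1DR, and 0 to 21 and 2 to 43 for the interactions of constructs 1 and 2. Without 4C the balance turned to lower members with construct 2 (49 called), between constructs (46) and for the construct 2 interaction (43). Without 5C, RPS12 changed with construct 2 by 0.49 against control and 0.31 against construct 1, and RPS19 by 0.24 against control. Without 4C these values were -1.66, -1.84 and -1.55. Without 4C and 5C the counts were 5 and 16 in DU145DR, 38 with construct 1 in 22Rv1DR and 21 for its interaction. The shares of all symbols for these are given above. Calls over all symbols also changed with the library left out.

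Quantile normalization gave 0 members with construct 2 in DU145DR and 1 and 4 for the interactions of constructs 1 and 2. It turned the line difference of RPL39 (-0.35), RPS10 (-0.31), RPL8 (-0.23), RPSA (-0.16), RPS9 (-0.14), RPS24 (-0.14), RPL28 (-0.12) and RPL7A (-0.025), and took the share of higher calls over all symbols with construct 2 in DU145DR from 66.1% to 54.3%, and for the interactions from 35.3% to 47.2% (construct 1) and from 37.5% to 49.7% (construct 2). The lower-numbered lane alone gave 0 with construct 2 in DU145DR, 5 with construct 1 in 22Rv1DR, and 1 and 5 for the interactions. Each line fitted alone gave 1 with construct 1 in DU145DR, 3 and 10 with constructs 1 and 2 in 22Rv1DR, and 0 between them. A pseudocount of 0.1 gave 1 with construct 1 in DU145DR, and the fit without trend and robust options gave 5 for the construct 2 interaction. The cause was not tested.

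With the replicate block the counts were 1 and 0 with constructs 1 and 2 in DU145DR and 4 for the construct 2 interaction. Correlations of deviations between libraries of the same number ran from -0.1 to 0.13, and the main fit did not pair libraries. Whether the numbers mark pairs is not stated, and weak correlations over all symbols cannot decide it. The 146 single-member differences that had passed the test or were named by the rule were followed one by one under the alternatives: 2915 values had the same call and direction, 281 lost the call, 26 gained it and 11 turned. Other members that gained a call are in the counts above only.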
